A study of Mus musculus with 26 samples.

Results

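Oligodendrocyte precursor identity was followed through 32 genes in gliomas of mice with and without Notch signalling. The 32 were taken by symbol from a list of genes known for marking oligodendrocyte precursors, and each was found by its Entrez identifier among the 24454 genes of the deposited table of counts. RNA had been sequenced from GFP+ cells sorted out of early tumours that were driven by PDGF, GFP coming from the Rosa-CAG::GFP reporter that Cre recombinase switches on. Trp53 was knocked out in every group, controls included. Control tumours kept Notch1, Notch2 and Rbpj (n = 6), and the others carried Notch1-/- (n = 6), Notch2-/- (n = 5), Notch1-/-Notch2-/- (n = 5) or Rbpj-/- (n = 4). Each genotype named below stands for the libraries labelled so. The sources used here do not give the ages of the mice, the promoters behind PDGF and Cre or the exons removed from each gene. Nothing in the labels ties replicates to different mice, and p-values therefore reflect only how far these libraries spread, part of which may be technical.

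Oligodendrocyte precursors are dividing glial cells that respond to PDGF through the receptor Pdgfra and give rise to the myelin-forming oligodendrocytes. Transcription factors of the Olig and Sox families set up and keep this lineage, and much of what marks the cell is on its surface or in the matrix around it. Notch receptors, cleaved when a neighbouring cell presents a ligand, send their inner part to the DNA-binding protein Rbpj, and Notch signalling is known for holding precursors back from differentiation.

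Total counts per library ran from 30868828 to 48103535, and all 32 genes were among the 15617 with enough counts to be tested. Levels are given as CPM, counts scaled to a common library total with TMM factors. Pdgfra and Cspg4, which define the precursor and are not among the 32, were at 4511 ± 1130 and 538 ± 132 CPM in control (SD, n = 6), and neither passed the test in any of the 4 comparisons with control. Rbpj was at 20.4 to 52.0 CPM in the Rbpj-/- libraries and 52.9 to 68.0 in control, and Notch2 at 6.14 to 8.58 CPM in Notch2-/- and 9.42 to 16.4 in control. In the libraries labelled Notch1-/-Notch2-/-, however, Notch2 was at 9.43 to 12.9 CPM, inside the control range and above every Notch2-/- library, with a log2 fold change against control of -0.18 ± 0.15 (SE, adjusted p = 0.377 by edgeR). Notch1 was at 88.2 to 214 CPM in Notch1-/-, 82.7 to 239 in Notch1-/-Notch2-/- and 71.2 to 148 in control. These are counts over the whole gene, so the Notch1 label, and the Notch2 label of Notch1-/-Notch2-/-, were not borne out by the level of the gene, and what is said of these genotypes rests on the labels. The libraries are bulk, so fewer cells of a type and less RNA per cell cannot be told apart. Control replicate 6 and Notch2-/- replicates 3 and 4 held many reads of both Xist and Y-linked genes.

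One library stood apart in the precursor genes themselves. In Notch1-/- replicate 2, 16 of the 32 genes were above all 5 other libraries of the genotype, 7 were below them and 9 lay inside their range. Gpr17, an orphan receptor of precursors committed to differentiation, was at 6256 CPM there and at 907 to 2557 in the other 5. Fyn, a Src-family kinase that acts in myelination, was at 3147 CPM against 563 to 837. Neu4, a sialidase, was at 805 CPM against 96.5 to 265, and Sox8 at 602 against 202 to 342. The lineage factors did not share this shift evenly: Sox10 was at 768 CPM against 346 to 490, while Olig1 at 1136 and Olig2 at 560.1 lay inside the range of the others. Rlbp1, which binds retinaldehyde, Megf11, a surface receptor, and Xylt1, which starts the sugar chains of proteoglycans, were lower in it, at 35.9, 107 and 82.2 CPM against lowest values of 119.6, 201 and 158 in the other 5. In the same library 12 genes of committed precursors and newly formed oligodendrocytes summed to 11379.5 CPM, against 1884 to 3154 in the other 5 and 2695 to 6120 in control. There 15 genes of mature oligodendrocytes summed to 21850.2 CPM, against 2567 to 8069 in the other 5, but inside the control range of 10786 to 28413.

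**Figure D1:**
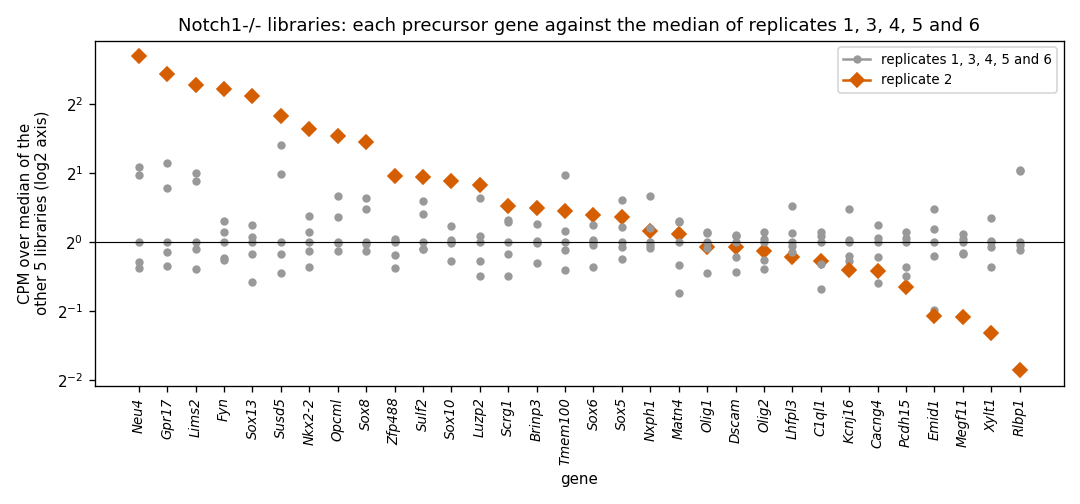
Each of the 32 precursor genes in the 6 Notch1-/- libraries, as CPM divided by the median of replicates 1, 3, 4, 5 and 6 on a log2 axis, with replicate 2 as orange diamonds and the others as grey points. Neu4, Gpr17, Lims2 and Fyn in replicate 2 stand 4.69 to 6.49 times above that median, and Rlbp1 at 0.277 times.

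In control tumours the precursor genes spanned a wide range of levels, compared here as CPM per kilobase of gene length. Olig1, a basic helix-loop-helix factor of the lineage, was highest at 626 ± 42.1 CPM per kilobase (SD, n = 6), above 99.8% of genes tested. Scrg1, a small secreted protein, followed at 610 ± 150, a difference from Olig1 within their spread. Gpr17 was at 476 ± 156, Lhfpl3, a tetraspan membrane protein, at 315 ± 70.5, Fyn at 284 ± 90.6, Sulf2, which removes sulphate from heparan chains outside the cell, at 269.7 ± 19.1, and Olig2 at 216 ± 10.5. Lhfpl3, Fyn and Sulf2 were likewise not separated by their spread. At the other end stood Susd5 at 11.1 ± 5.61, Sox5 at 10.3 ± 2.60 and Sox13, a Sox family factor, at 2.40 ± 0.649, which alone of the 32 lay below the middle of all genes tested, above 28.5% of them. The spread between control libraries also differed among the genes: the coefficient of variation was 4.86% for Olig2, 5.17% for Brinp3, 6.72% for Olig1 and 7.09% for Sulf2, and 42.9% for Rlbp1, 48.8% for Pcdh15, 49.0% for Xylt1, 50.7% for Susd5 and 52.99% for Lims2.

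**Figure D2:**
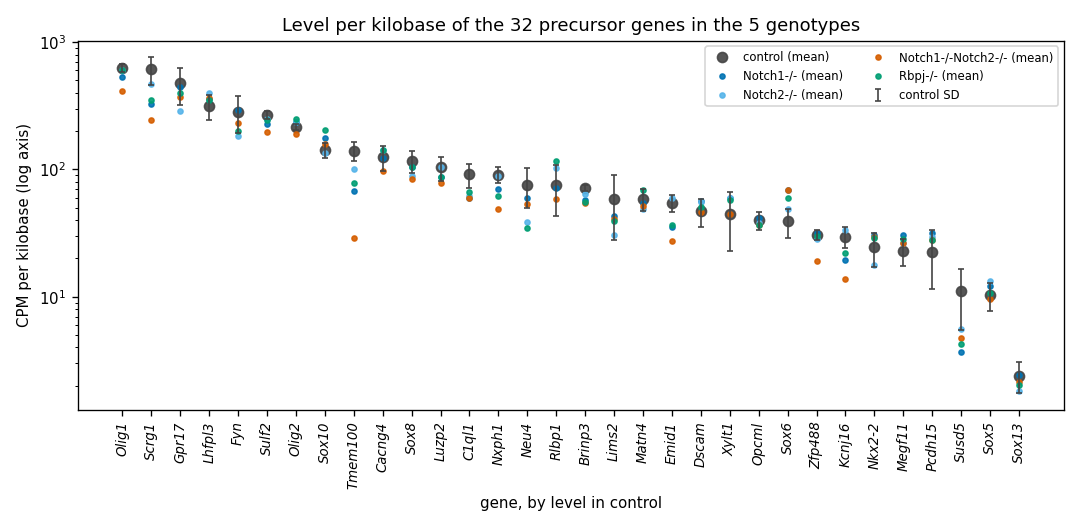
Mean CPM per kilobase (log axis) of the 32 precursor genes in each genotype, ordered by control, with the SD of the 6 control libraries as bars. Olig1 and Scrg1 lead in control at 626 and 610, and Sox13 closes at 2.40. Tmem100, Scrg1, Susd5, Kcnj16, Emid1, Nxph1 and Zfp488 of Notch1-/-Notch2-/- lie well below their control mean while Sox6 lies above it. Susd5 and Emid1 did not pass the test there.

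The first question was which of these genes change when both Notch1 and Notch2 are lost. Of the 32, 1 rose and 7 fell in the libraries labelled Notch1-/-Notch2-/-, whose Notch1 and Notch2 counts do not show the loss, against control. The gene that rose was Sox6, and those that fell were Tmem100, Scrg1, Kcnj16, Nxph1, Zfp488, Olig1 and Brinp3, by edgeR's quasi-likelihood test at a Benjamini-Hochberg adjusted p below 0.05. A gene is said to pass or to be called by this test, in the fit of all libraries, unless another is named. As a share, 3.12% of the precursor genes rose and 21.9% fell, where 18.3% of all genes tested rose and 18.8% fell, so the fall was near the share of all genes. Their median log2 fold change was -0.38, with 25 of 32 below 0, and that of all genes was 0.01. For 16 of the 32 the 95% interval of the log2 fold change lay wholly between -1 and 1, a band within which a gene is called held here, and 54.3% of all genes were held. In 1 gene, Sox6, every Notch1-/-Notch2-/- library was above every control, and in 5 every one was below, where 11.6% and 11.1% of all genes were separated in these ways. All 8 calls remained when any single library was left out.

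The next comparison was of Rbpj, the effector that both receptors share. Sox6 rose and Scrg1 fell in Rbpj-/- against control, 3.12% each way, where 7.97% of all genes rose and 7.25% fell. The median log2 fold change of the precursor genes was -0.12 and that of all genes 0.07, and 15 of 32 were held, with 59.1% of all genes. This count of 2 rests on single libraries. It was 0 without control replicate 2, 3 or 6 or without Rbpj-/- replicate 2 or 4, 1 without control replicate 5, and 7 without Rbpj-/- replicate 3, where Sox10 and Sox6 rose and Nxph1, Scrg1, Brinp3, Susd5 and Tmem100 fell. It was also 0 without the 3 libraries with both Xist and Y-linked reads. With only the control and Rbpj-/- libraries in the fit it was again 2, but of other genes: Neu4 and Tmem100 fell, and Sox6 and Scrg1 were not called.

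In the libraries labelled Notch1-/-, whose Notch1 counts do not show the loss, Sox6 rose and Tmem100, Scrg1, Brinp3 and Susd5 fell against control. That is 3.12% of the precursor genes up and 12.5% down, where 13.2% of all genes rose and 13.5% fell. The median was -0.09 for the precursor genes and 0.03 for all genes, and 21 of 32 were held, with 59.9% of all genes. Without Notch1-/- replicate 2 the count was 9 in place of 5, with Megf11 added to those that rose and Fyn, Lims2 and Neu4 to those that fell. It was 3, the calls of Sox6, Scrg1 and Tmem100, without control replicate 2, 3 or 6 or without Notch1-/- replicate 1, 3, 5 or 6. Without the 3 libraries with both Xist and Y-linked reads it was 4.

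Loss of Notch2 alone gave no call among the 32 by edgeR, with 2 at an unadjusted p below 0.05. DESeq2's Wald test also gave 0, and limma voom with quality weights gave 4, which were Sox8, Lims2, C1ql1 and Neu4. Among all genes 0.295% were called. The median log2 fold change of the precursor genes was -0.07, that of all genes 0.01, and 20 of 32 were held, with 68.3% of all genes. The 4 comparisons share the control libraries, so agreement between them is not independent.

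**Figure D3:**
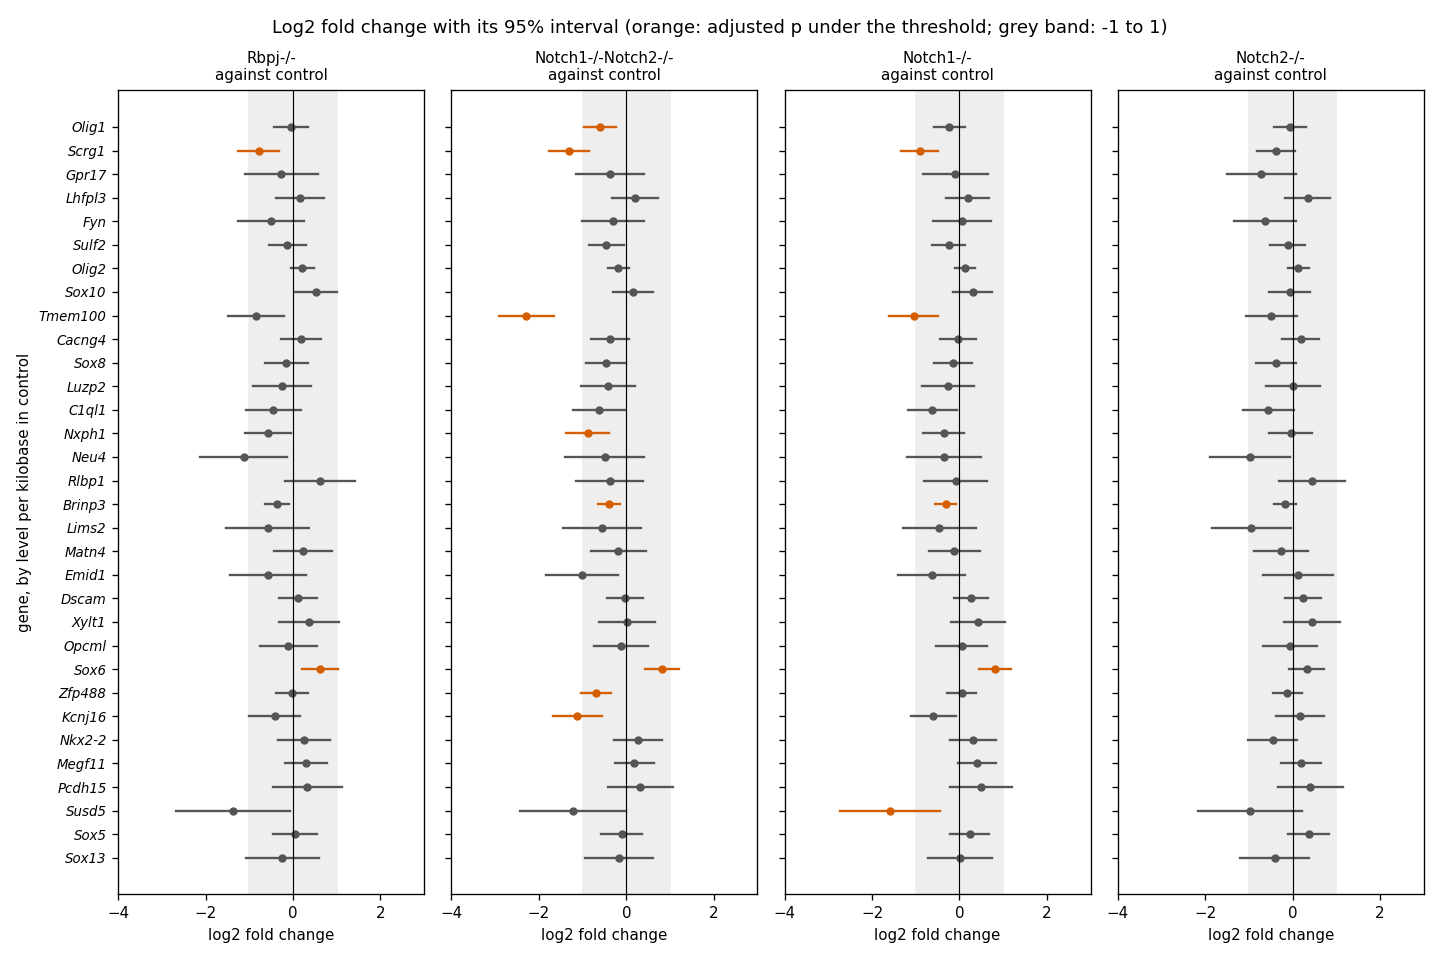
Log2 fold change against control with its 95% interval for the 32 precursor genes in Rbpj-/-, Notch1-/-Notch2-/-, Notch1-/- and Notch2-/-, ordered by level per kilobase in control, with genes past the threshold in orange and the band from -1 to 1 in grey. Orange marks 2, 8, 5 and 0 genes, and Tmem100 in Notch1-/-Notch2-/- lies farthest from 0 at -2.29.

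Of the 9 transcription factors, Sox6 was the one that rose. Sox6 (chromosome 7, 115470872 to 116040776), a factor of the SoxD group known for keeping precursors undifferentiated, had 266, 368 and 514 CPM as lowest, median and highest of the control libraries. It had 554, 713, 591, 718 and 660.1 in the Notch1-/-Notch2-/- libraries, all above every control. In Rbpj-/- it had 417, 612, 504 and 698, and in Notch1-/- 479, 619.6 and 804 as lowest, median and highest, ranges that overlap control. Its log2 fold change was 0.82 ± 0.19 (SE, adjusted p = 0.00201) in Notch1-/-Notch2-/-, 0.81 ± 0.18 (adjusted p = 0.00332) in Notch1-/- and 0.61 ± 0.20 (adjusted p = 0.042) in Rbpj-/-. In Notch2-/- it had 368, 594, 284, 489.9 and 542 CPM, which overlaps control and reaches above it. Sox5, the SoxD partner that shares most of its known roles, passed the test in no comparison, with intervals inside -1 to 1 in all 4. The ratio of Sox6 to Sox5 counts, which no scaling of libraries touches, was 3.99 to 5.72 in control, 6.45 to 14.6 in Notch1-/-Notch2-/-, 5.48 to 10.9 in Rbpj-/-, 5.12 to 9.39 in Notch1-/- and 3.88 to 5.87 in Notch2-/-. It is given as a description.

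Olig1 and Olig2 are neighbours on chromosome 16 and are named together as lineage factors, but their values in Notch1-/-Notch2-/- differed. Olig1 (91269769 to 91271939) had 1241, 1382 and 1447 CPM as lowest, median and highest in control and 1108, 775, 1193, 615 and 769.6 in Notch1-/-Notch2-/-, all below every control. Its log2 fold change was -0.61 ± 0.18 (SE, adjusted p = 0.0109). In Rbpj-/- the 4 libraries split, at 1701, 1591, 967 and 976 CPM, for a log2 fold change of -0.05 ± 0.19 (adjusted p = 0.871). In Notch1-/- it was -0.23 ± 0.17 (adjusted p = 0.301) and in Notch2-/- -0.06 ± 0.18 (adjusted p = 0.89).

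Olig2 (91225550 to 91228677) passed the test in none of the comparisons and was held in all 4. It had 478, 535 and 548 CPM in control, 465, 584 and 674 in Notch1-/-, and 601, 607, 614, 589 and 469 in Notch2-/-. In Notch1-/-Notch2-/- it had 562, 430.2, 487, 373 and 473, and in Rbpj-/- 730.0, 659, 496 and 551. Every genotype overlapped control. The log2 fold change was -0.18 ± 0.12 (SE, adjusted p = 0.252) in Notch1-/-Notch2-/-, 0.21 ± 0.13 (adjusted p = 0.269) in Rbpj-/-, 0.13 ± 0.12 (adjusted p = 0.417) in Notch1-/- and 0.13 ± 0.12 (adjusted p = 0.6) in Notch2-/-. The ratio of Olig1 to Olig2 counts was 2.33 to 2.69 in control, 1.63 to 2.45 in Notch1-/-Notch2-/-, 1.77 to 2.41 in Rbpj-/-, 1.76 to 2.19 in Notch1-/- and 1.86 to 2.73 in Notch2-/-. The whole Notch1-/- range thus lay below the control range. This ratio is given as a description and was not tested or set beside ratios of other genes.

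Sox10, the SoxE factor that switches on myelin genes, passed the test in no comparison either. It had 298, 388 and 451 CPM in control and 543, 408, 486, 386 and 338 in Notch1-/-Notch2-/-. The Rbpj-/- libraries ran from 292 to 804, at 804, 678, 292 and 459.7, wider than the control range on both sides. The log2 fold change was 0.53 ± 0.24 (SE, adjusted p = 0.126) in Rbpj-/-, with a 95% interval of 0.04 to 1.02, 0.16 ± 0.22 (adjusted p = 0.599) in Notch1-/-Notch2-/-, 0.30 ± 0.21 (adjusted p = 0.291) in Notch1-/- and -0.07 ± 0.22 (adjusted p = 0.893) in Notch2-/-. Sox8, its SoxE relative, was held in all 4 comparisons and passed in none, with means of 348 CPM in control and 253, 313, 315 and 268 in Notch1-/-Notch2-/-, Rbpj-/-, Notch1-/- and Notch2-/-.

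The last factor to change was Zfp488 (chromosome 14, 33967070 to 33979034), a zinc finger protein known to promote oligodendrocyte differentiation. It had 113, 132 and 148 CPM in control and 81.9, 72.3, 96.4, 68.7 and 90.7 in Notch1-/-Notch2-/-, all below every control, for a log2 fold change of -0.69 ± 0.17 (SE, adjusted p = 0.00287). In Rbpj-/- it had 115, 135, 136 and 133 CPM, inside the control range, and it was held there and in both single receptor genotypes against control. Nkx2-2, a homeodomain factor of the lineage, had means of 59.9 CPM in control and 43.5 to 74.3 in the other genotypes and passed in no comparison. Sox13 did not pass either, at means of 8.49 CPM in control and 6.38 to 8.56 elsewhere.

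Among the 10 receptors, channels and adhesion proteins of the surface, Tmem100 had the widest change. Tmem100 (chromosome 11, 90030348 to 90036508), a small membrane protein also known from blood vessels, had 171, 254 and 298 CPM as lowest, median and highest in control. It had 61.9, 40.1, 76.5, 22.3 and 53.5 in Notch1-/-Notch2-/-, with no overlap, a log2 fold change of -2.29 ± 0.30 (SE, adjusted p = 1.55e-05). In Notch1-/- it had 76.7, 107 and 199 CPM, overlapping control at its upper end, and fell by 1.05 on the log2 scale (SE 0.27, adjusted p = 0.00843). The Rbpj-/- libraries had 88.1, 159, 195 and 106 CPM and did not pass against control by edgeR with all libraries (adjusted p = 0.0617). DESeq2's Wald test, limma voom with quality weights and the fit of only the compared libraries called Tmem100 as lower in Rbpj-/-. So did edgeR without control replicate 4 or without Rbpj-/- replicate 3. In Notch2-/- the values were 181, 100.5, 263, 202 and 140.3, which overlaps control and reaches below it. The summed level of 9 endothelial genes was 39.3 to 171 CPM in control, 11.1 to 23.6 in Notch1-/-Notch2-/-, 6.78 to 23.7 in Notch1-/-, 16.8 to 30.7 in Rbpj-/- and 31.7 to 112 in Notch2-/-. The median of this sum was 91.4 CPM in control, 72.9 in Notch2-/-, 19.4 in Rbpj-/-, 16.7 in Notch1-/- and 21.1 in Notch1-/-Notch2-/-. Tmem100 had medians of 254, 181, 133, 107 and 53.5 in the same order. With the endothelial score as a covariate the log2 fold change of Tmem100 in Notch1-/-Notch2-/- was -2.44 (adjusted p = 0.0192). The sums of Notch1-/-Notch2-/- and control do not overlap, so this covariate cannot be separated from genotype. Whether endothelial content had a part in the level of Tmem100 was not tested.

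Kcnj16, an inwardly rectifying potassium channel subunit (chromosome 11, 110968033 to 111027968), had 78.1, 128 and 135 CPM in control and 66.7, 34.8, 91.6, 25.5 and 56.9 in Notch1-/-Notch2-/-. The ranges overlapped through control replicate 3, the lowest control, and the log2 fold change was -1.12 ± 0.27 (SE, adjusted p = 0.00293). In Notch2-/- it had 126, 155, 110.3, 148 and 131 CPM and in Rbpj-/- 46.5, 100.4, 139 and 71.4, neither past the threshold. The Notch1-/- libraries had 61.1, 75.4 and 112 CPM as lowest, median and highest, and did not pass by edgeR with all libraries. Kcnj16 was called as lower in Notch1-/- by limma voom with quality weights, with only the compared libraries and without Notch1-/- replicate 4. Susd5, a protein with a sushi domain (chromosome 9, 114057354 to 114098733), had 15.1, 39.3 and 78.0 CPM in control and 5.80, 11.7 and 28.04 in Notch1-/-, overlapping, with a log2 fold change of -1.59 ± 0.56 (adjusted p = 0.0371) that was lost without any of 7 of the 12 libraries compared: control replicates 2, 3 and 6 and Notch1-/- replicates 1, 3, 5 and 6. Its SE was the largest of the calls, at the low level and wide spread it had in control. The medians of Susd5 in the other genotypes were 12.5 CPM in Notch1-/-Notch2-/-, 10.7 in Rbpj-/- and 17.0 in Notch2-/-. It was not called there by edgeR with all libraries, while limma voom with quality weights called it as lower in Notch1-/-Notch2-/- and Rbpj-/-.

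The other surface genes passed the test in no comparison with all libraries. Lhfpl3, Dscam, an adhesion molecule of the immunoglobulin family, Megf11, Cacng4, an auxiliary subunit of glutamate receptors, and Opcml, an adhesion protein anchored in the membrane by a lipid, were held in all 4 comparisons with control. Lhfpl3 averaged 939 ± 210 CPM in control (SD, n = 6), 1081 ± 362 in Notch1-/-Notch2-/- (n = 5) and 1049 ± 455 in Rbpj-/- (n = 4). Dscam averaged 351 ± 88.6, 345 ± 107 and 382 ± 94.7 in the same order. These are means that differ by less than the spread between libraries. Gpr17 averaged 2473 ± 809 CPM in control and 1909 ± 627 in Notch1-/-Notch2-/-, 2058 ± 315 in Rbpj-/-, 2318 ± 2032 in Notch1-/- and 1499 ± 528 in Notch2-/-, where the 95% interval of the log2 fold change was -1.51 to 0.07. Gpr17 lies within Lims2 on the other strand, and the strand setting of the counting is not given, so reads of these 2 genes cannot be told apart where they overlap. Pcdh15, a protocadherin, was held in none of the 4, with 115 to 622 CPM among the controls alone.

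Of the 10 secreted, matrix and sugar-modifying proteins, Scrg1 fell in 3 of the 4 comparisons with control. Scrg1 (chromosome 8, 57455882 to 57479360) had 268, 467 and 533 CPM as lowest, median and highest in control. It had 191, 149, 208, 119.5 and 192 in Notch1-/-Notch2-/-, all below every control, 289, 229, 289 and 183 in Rbpj-/-, and 149, 233 and 301 in Notch1-/-, the last 2 overlapping the lowest control. Its log2 fold change was -1.31 ± 0.22 (SE, adjusted p = 1.28e-04), -0.79 ± 0.23 (adjusted p = 0.0256) and -0.91 ± 0.20 (adjusted p = 0.0032) in that order. In Notch2-/- it had 436, 238, 407, 263 and 286 CPM, which overlaps control and reaches below it.

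Brinp3, a protein named for its induction by BMP and retinoic acid (chromosome 1, 146495629 to 146902472), showed a small shift against a tight control group. It had 209, 226 and 239 CPM in control and 155, 181, 170.2, 171 and 186 in Notch1-/-Notch2-/-, all below every control. Its log2 fold change was -0.39 ± 0.12 (SE, adjusted p = 0.0155) there and -0.31 ± 0.12 (adjusted p = 0.0479) in Notch1-/-, where the highest library, replicate 2, reached the control range. In Rbpj-/- all 4 libraries, at 131, 167, 205 and 198 CPM, lay below every control, as they did for 4.96% of all genes (2.79% lay above every control, with none of the 32), and the adjusted p was 0.0574. Brinp3 and Olig1 both fell and were held, since their whole intervals lay above -1. The call of Brinp3 in Notch1-/- was lost without control replicate 1, 2, 3, 5 or 6 and without Notch1-/- replicate 1, 3, 5 or 6. Nxph1, a secreted ligand of neurexins (chromosome 6, 8948614 to 9249619), had 130.2, 160.3 and 196 CPM in control and 100.4, 62.3, 146, 46.8 and 84.9 in Notch1-/-Notch2-/-, overlapping, with a log2 fold change of -0.89 ± 0.24 (adjusted p = 0.00644). Its mean was 163 CPM in control, 126 in Notch1-/-, 110 in Rbpj-/- and 158 in Notch2-/-. By edgeR with all libraries it was called only in Notch1-/-Notch2-/-, and limma voom with quality weights also called it as lower in Rbpj-/-.

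Sulf2 and Matn4, a matrilin of the matrix, passed in no comparison and were held in all 4. Sulf2 averaged 1115 ± 79.0 CPM in control (SD, n = 6) and 811 ± 219 in Notch1-/-Notch2-/- (n = 5), with an adjusted p of 0.0643. Emid1, a secreted protein with an EMI domain, had 80.7, 26.9, 105, 16.2 and 32.2 CPM in Notch1-/-Notch2-/- and 81.0, 103 and 126 in control, and just missed the threshold (adjusted p = 0.0506). It was called as lower in Notch1-/-Notch2-/- with DESeq2 size factors, with a block for the replicate number, by DESeq2's Wald test and by limma voom. C1ql1, a secreted protein of the C1q family, averaged 114 ± 24.6 CPM in control and 74.0 to 83.3 in the other 4 genotypes, and Neu4 348 ± 119 in control and 159 to 273 elsewhere. Neither passed by edgeR with all libraries, and neither was held in any of the 4 comparisons. By limma voom Neu4 was called as lower in Rbpj-/-, Notch1-/- and Notch2-/-, and C1ql1 in Notch2-/-. The fit of only the compared libraries called Neu4 as lower in Rbpj-/-, and C1ql1 in Notch1-/-Notch2-/- and Notch1-/-. Xylt1 averaged 137 CPM in control and 138 to 185 elsewhere, and Luzp2, a leucine zipper protein, 548 in control and 409 to 548 elsewhere, also without a call by edgeR, while limma voom with quality weights called Xylt1 as higher in Notch1-/-.

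The 3 proteins that act inside the cell, Fyn, Lims2, an adaptor of focal adhesions, and Rlbp1, passed in no comparison when all libraries were used. Fyn averaged 1048 ± 334 CPM in control (SD, n = 6), 847 ± 179 in Notch1-/-Notch2-/-, 741 ± 135 in Rbpj-/- and 671 ± 40.2 in Notch2-/-. Its control libraries alone ran from 622 to 1541 CPM. Lims2 ran from 37.0 to 185 CPM in control and Rlbp1 from 98.7 to 305. With this spread, none of the 3 was held in Rbpj-/-, Notch1-/-Notch2-/- or Notch2-/-, so neither a change nor its absence was shown for them.

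**Figure D4:**
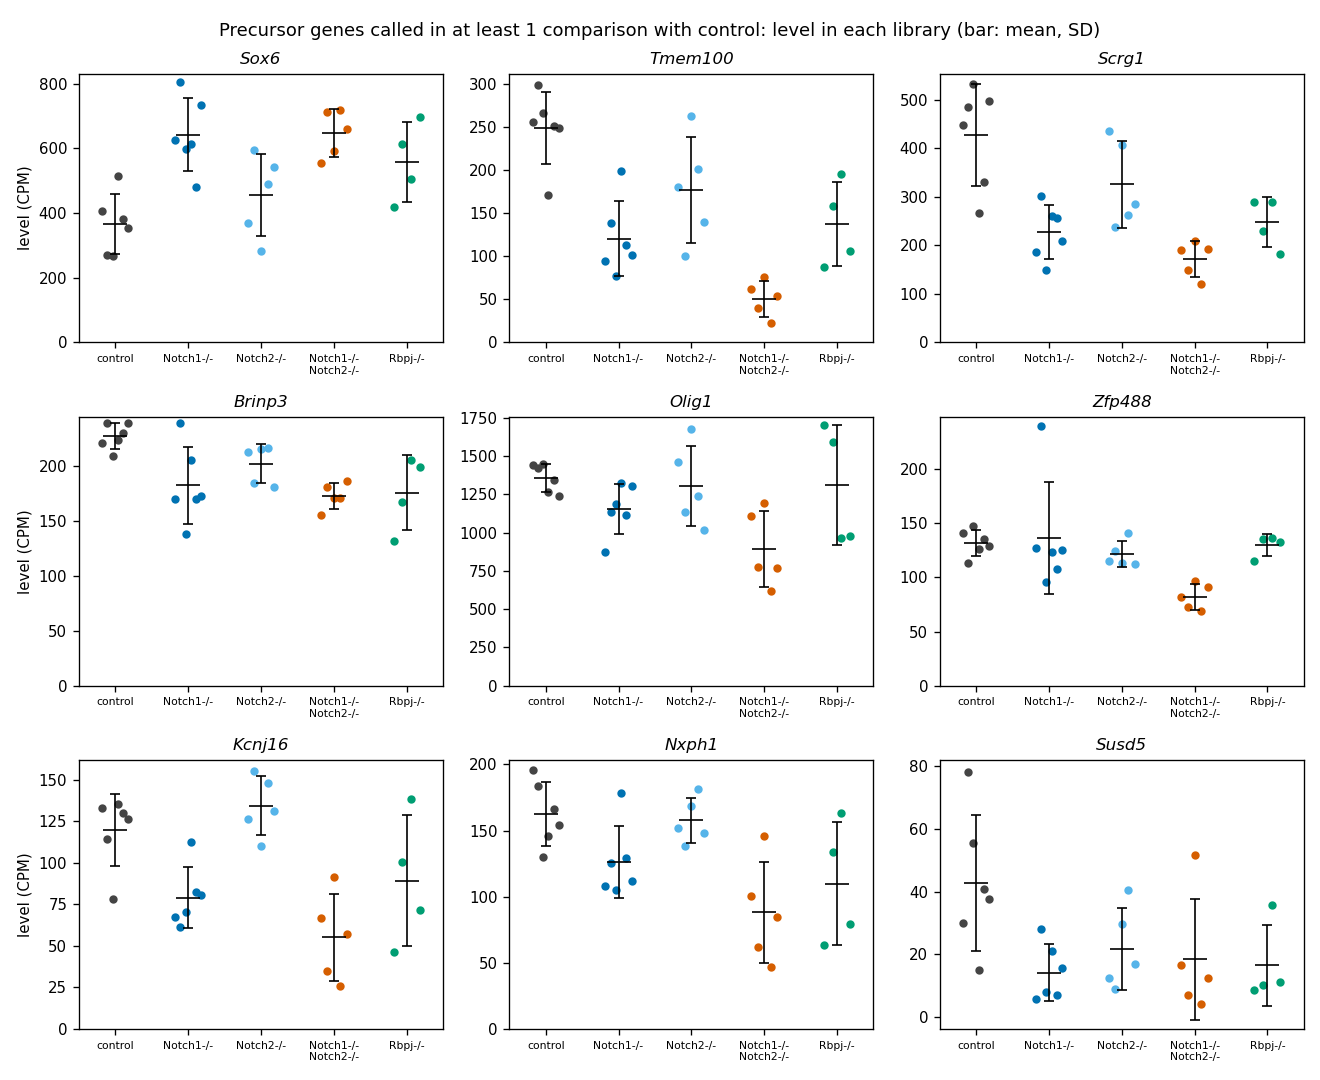
CPM in each library, by genotype, of the 9 precursor genes called in at least 1 comparison with control, with mean and SD as black bars. Every Notch1-/-Notch2-/- point of Tmem100, Scrg1, Brinp3, Olig1 and Zfp488 lies below all control points and every one of Sox6 above them, while Kcnj16, Nxph1 and Susd5 overlap.

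Over the 4 comparisons with control, 10 of the 32 genes were held in all 4 and called in none: Olig2, Sox5, Sox8, Lhfpl3, Dscam, Megf11, Cacng4, Opcml, Sulf2 and Matn4. Another 9 were called at least once. The remaining 13 were neither held throughout nor called, and for 4 of them, C1ql1, Lims2, Neu4 and Pcdh15, the interval reached past the band in every comparison. The 10 are 31.2% of the 32, where 32.6% of all genes were held in all 4 and called in none, and the 9 are 28.1%, where 43.9% of all genes were called at least once, so the share that held was near that of all genes. Other tests called 3 of the 10: limma voom gave Megf11 as higher in Notch1-/-, Sox8 as lower in Notch2-/- and Sulf2 as lower in Notch1-/-Notch2-/-. DESeq2's Wald test also gave Sulf2, and the fit of only the compared libraries gave Sox8 and Sulf2 as lower in Notch1-/-Notch2-/-. Leaving out single libraries added Cacng4, called as lower in Notch1-/-Notch2-/- without its replicate 3. Sulf2 was called as lower there without replicate 1, and Megf11 as higher in Notch1-/- without its replicate 2.

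The receptor pair and the shared effector were then compared directly. In Rbpj-/- against Notch1-/-Notch2-/- 1 of the 32 genes was called, Tmem100, and 0.794% of all genes were. Its 88.1, 159, 195 and 106 CPM in Rbpj-/- lay above all 5 values of Notch1-/-Notch2-/-, for a log2 difference of 1.43 ± 0.32 (SE, adjusted p = 0.0304). The call was lost without Notch1-/-Notch2-/- replicate 2, 4 or 5 or without Rbpj-/- replicate 2 or 3, and when only these 9 libraries entered the fit. With Tmem100, Zfp488 and Sox8 made 3 of the 32 that were higher in every Rbpj-/- library than in any of Notch1-/-Notch2-/-, where 1.93% of all genes were. None of the 32 was lower in every one, where 2.49% of all genes were. Zfp488 (adjusted p = 0.095) and Sox8 (adjusted p = 0.622) did not pass by edgeR, and DESeq2's Wald test and limma voom called Zfp488. The gap for Sox8 was small, between 284 and 286 CPM. Olig1 differed by 0.55 on the log2 scale between them, with a 95% interval of 0.15 to 0.96 (adjusted p = 0.242). Notch1-/-Notch2-/- replicates 4 and 2 had the lowest levels over the 32 genes of all 26 libraries, with a mean log2 CPM of 6.86 and 7.13 and 7.26 to 8.00 in the others, and replicate 4 was the lowest of the 26 for 13 of the genes.

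In Notch1-/- against Notch2-/- none of the 32 was called by edgeR, with 4 at an unadjusted p below 0.05, where 3.09% of all genes were called. DESeq2 gave 0 and limma voom 1, Kcnj16. The calls made against control in Notch1-/- and not in Notch2-/- are therefore not shown to differ between the single losses.

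Promoters were read for the members that changed, because genes that Rbpj binds carry the letters TGGGAA at its known sites. RefSeq (GRCm38.p6) had an entry for 22 of the 32. Where it lists several starts, the most upstream was used, and in 12 of the 22 that start lies inside the gene span rather than at its first base, by 2032 bases in Sox6, 1405 in Nxph1 and 270 in Zfp488. The largest offsets were 835181 bases in Sox5, 725590 in Pcdh15, 9032 in Nkx2-2 and 5223 in Rlbp1, whose windows are counted below all the same. The 250 bases before the listed start of 3 genes are shown, in the direction of the gene: Sox6, called in 3 genotypes (chr7:116038745-116038994, minus strand), Brinp3, with the letters at 2 places (chr1:146495379-146495628, plus strand), and Kcnj16, whose log2 fold change was past -1 (chr11:110967783-110968032, plus strand). Capitals mark TGGGAA or its reverse complement.
Sox6: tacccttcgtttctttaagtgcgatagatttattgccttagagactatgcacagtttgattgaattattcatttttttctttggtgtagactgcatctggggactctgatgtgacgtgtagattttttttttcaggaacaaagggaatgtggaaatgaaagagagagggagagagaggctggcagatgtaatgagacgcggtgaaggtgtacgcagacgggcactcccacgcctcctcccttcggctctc
Brinp3: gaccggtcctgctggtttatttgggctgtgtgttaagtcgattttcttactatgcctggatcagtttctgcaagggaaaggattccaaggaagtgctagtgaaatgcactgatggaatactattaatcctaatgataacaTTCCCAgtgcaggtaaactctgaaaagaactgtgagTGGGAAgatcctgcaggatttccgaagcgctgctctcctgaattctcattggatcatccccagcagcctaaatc
Kcnj16: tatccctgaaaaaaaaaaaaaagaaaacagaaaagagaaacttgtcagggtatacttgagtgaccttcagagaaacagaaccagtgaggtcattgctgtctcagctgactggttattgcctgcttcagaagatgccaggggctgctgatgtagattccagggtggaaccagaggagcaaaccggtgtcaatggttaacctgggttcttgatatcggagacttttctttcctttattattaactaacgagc
The matches of Brinp3 begin 110 and 74 bases before its start, and Nxph1 had 1 match, 98 bases before its listed start. Among the called genes with an entry, Sox6, Kcnj16, Zfp488 and Susd5 had none in this window. On both strands, 6 of the 22 windows (27.3%) held TGGGAA, and 21.5% of 27025 promoter windows of the same length did. CANNTG, the E-box that Olig factors recognise, was in 15 of 22 (68.2%) and 66.1%, and CAGCTG, 1 of its forms and so counted within it, in 4 of 22 (18.2%) and 12.7%. A match is a string of letters and not a shown binding site.

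Other genes of the precursor and of its progeny were set beside the 32. Of 13 other precursor genes, 1 rose and 3 fell in Notch1-/-Notch2-/-, 2 fell in Rbpj-/-, 1 rose and 1 fell in Notch1-/-, and none passed in Notch2-/-. Cdo1, cysteine dioxygenase, fell in 3 genotypes, by 1.71, 1.14 and 0.91 on the log2 scale in Notch1-/-Notch2-/-, Notch1-/- and Rbpj-/- (adjusted p = 2.92e-05, 0.00135 and 0.0202). Ncan, a proteoglycan of the brain matrix, rose by 0.62 in both Notch1-/-Notch2-/- and Notch1-/- (adjusted p = 0.0474 and 0.0488). Of 12 genes of committed precursors and newly formed oligodendrocytes, 1 rose and 3 fell in Notch1-/-Notch2-/-, and 2 fell in each of Rbpj-/- and Notch1-/-. Of 15 genes of mature oligodendrocytes, 13, 10 and 11 fell in Notch1-/-Notch2-/-, Rbpj-/- and Notch1-/-, with medians of -3.10, -2.10 and -1.70, and none passed in Notch2-/-. Their sum was 10786 to 28413 CPM in control, 2436 to 6644 in Notch1-/-Notch2-/-, 3875 to 11281 in Rbpj-/-, 2567 to 21850.2 in Notch1-/- and 3904 to 24207 in Notch2-/-. Of 6 Notch target genes, 4 fell in Notch1-/-Notch2-/- and in Notch1-/- and 1, Hes5, in Rbpj-/-.

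Markers of other cell types moved with the same comparisons. Of 12 microglia and macrophage genes, 11 fell in Notch1-/-Notch2-/-, 11 in Rbpj-/- and 12 in Notch1-/-, and their sum was 340.3 to 1454 CPM in control, 46.4 to 148 in Notch1-/-Notch2-/-, 117 to 217 in Rbpj-/-, at most 254 in Notch1-/- and 287 to 654 in Notch2-/-. Of 9 endothelial genes, 8, 7 and 8 fell in Notch1-/-Notch2-/-, Rbpj-/- and Notch1-/-, and 1 rose in Notch1-/-Notch2-/-. Of 10 astrocyte genes, 8, 5 and 7 fell, with sums of 1390 to 2474 CPM in control and 526 to 1111, 844 to 1363 and 848 to 1379 in that order. Of 9 mural and fibroblast genes, 3, 2 and 4 fell, and of 9 neuron genes 1, Stmn2 in Notch1-/-Notch2-/-. No gene of these lists was at 0 in every library of a genotype. With the microglia and macrophage score, the mature oligodendrocyte score or the endothelial score as a covariate, the number of calls among the 32 in Notch1-/-Notch2-/- went from 8 to 3, 0 and 2. With the first score 2 of the 8 remained, Kcnj16 and Tmem100, and Nkx2-2, which is not among the 8, was called as higher, and with the last score Scrg1 and Tmem100 remained. Of the other comparisons, the 5 calls in Notch1-/- became 0 with each, and the 2 in Rbpj-/- became 0 with each. The calls over all genes in Notch1-/-Notch2-/- went from 5794 to 590, 152 and 401 under the same covariates. Tmem100 in Notch1-/-Notch2-/- kept its call with the microglia and macrophage score (log2 fold change -2.35, adjusted p = 0.0232) and the endothelial score, and lost it with the mature oligodendrocyte score (-1.08, adjusted p = 0.136).

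**Figure D5:**
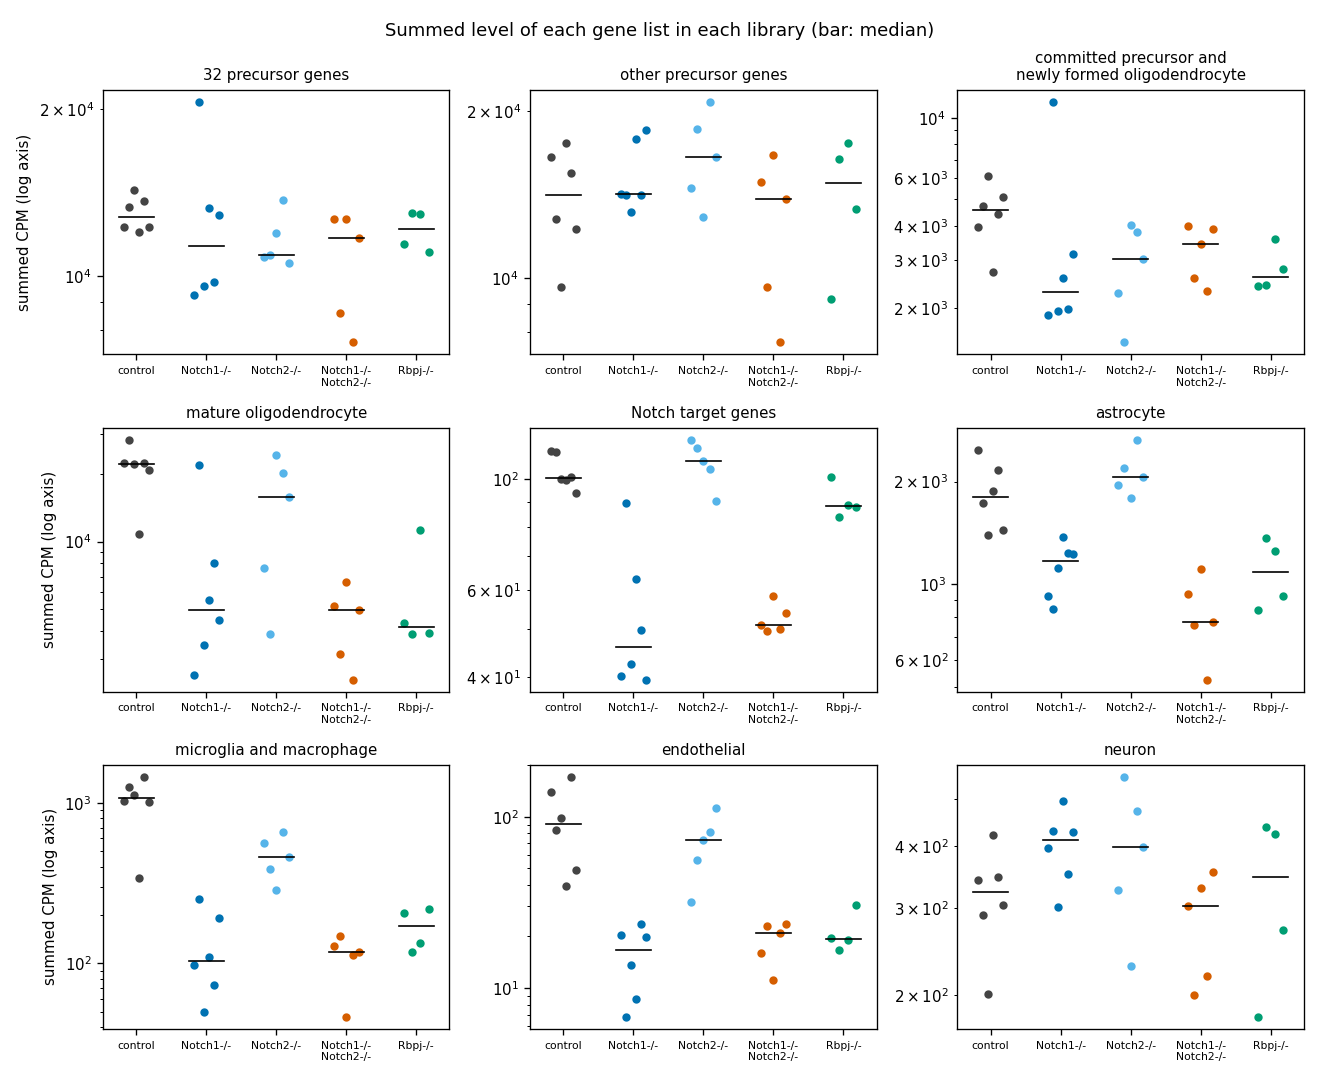
Summed CPM (log axis) in each library, by genotype, of the 32 precursor genes and of 8 other gene lists, with the median of each genotype as a bar. The 32 precursor genes sum to 12029 to 14276 in control and 7596 to 12704 in Notch1-/-Notch2-/-, while the microglia and macrophage sum drops from 340.3 to 1454 in control to 46.4 to 148 there.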

How the data were processed

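Per the labels' protocols, sequencing of GFP+ cells used TruSeq Stranded RNA LT libraries on an Illumina NextSeq 500. The authors deposited raw counts per gene and a gene length in bases, which was used only for CPM per kilobase. The aligner was STAR and the build mm10, per the submitters' processing notes. The sources used here do not give the counting tool, its annotation or its strand setting. Symbols and positions came from a RefSeq table (GRCm38.p6) by Entrez identifier, which matched 24374 of 24454 genes, and the other 80 held 0.348% of counts.

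Genes were filtered with filterByExpr by genotype, leaving 15617, with TMM scaling. A single fit of all 26 libraries used edgeR 4.0.16 in R 4.3.3, with the quasi-likelihood F-test and Benjamini-Hochberg adjustment over the 15617 genes at 0.05. Standard errors came from the log2 fold change and F, and 95% intervals from the t quantile at the test's degrees of freedom. The common biological coefficient of variation was 0.368. Log2 CPM used a prior count of 2, and a list's score is its mean log2 CPM.

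The 32 genes, the other lists and the tests were chosen with earlier results of these data known. All 32 are accounted for. Fold changes are given where a gene passed and for Olig1, Olig2 and Sox10 throughout, with intervals or adjusted p for those near the threshold. From other lists up to 4 genes with the smallest adjusted p could be named. Alternatives were DESeq2 size factors, no filter, DESeq2 1.42.0, limma 3.58.1 voom with quality weights, a replicate block, only the compared libraries, 3 scores as covariates, leaving out the 3 libraries of both Xist and Y-linked reads, and leaving out each library. The fit was tested on simulated counts.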

Additional observations from a re-analysis of the deposited data

Results flagged for a closer look

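In each genotype, a group of 4 to 6 libraries, the highest or lowest library was set apart where its gap to the next was large for the range of the group (Dixon's test at 95%). Over the 32 genes and 5 genotypes 20 of 160 tests did so, and chance gives about 1 in 20. Notch1-/- replicate 2 accounts for 11. It was the highest Notch1-/- library for Sox10 (768 CPM), Sox8 (602), Sox13 (24.4), Nkx2-2 (169), Gpr17 (6256), Neu4 (805), Lims2 (186), Zfp488 (240 CPM), Opcml (497) and Fyn (3147), and the lowest for Megf11 (107).

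The other 9 are spread over 7 libraries. Olig2 was lowest in Notch2-/- replicate 5 (469 CPM) and Sox13 in Rbpj-/- replicate 3 (4.89). Rlbp1 was highest in control replicate 1 (305) and in Notch2-/- replicate 3 (318). Luzp2 (321) and Kcnj16 (78.1) were lowest in control replicate 3. Nxph1 was highest in Notch1-/- replicate 4 (178). Susd5 was highest in Notch1-/-Notch2-/- replicate 3 (51.8) and in Rbpj-/- replicate 3 (35.9).

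Tmem100 differed between Rbpj-/- and Notch1-/-Notch2-/- in the test of the difference itself, by 1.43 on the log2 scale, though its call was lost without any of 5 of the 9 libraries, named in the report.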

How the results depend on the processing

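The count of precursor genes called in Rbpj-/- (2 with the settings of the report) was 1 with DESeq2 size factors, 1 with no filter, 4 with DESeq2's Wald test, 6 with voom, 2 with only the compared libraries (Neu4 and Tmem100 in place of Sox6 and Scrg1), and 0 with the microglia and macrophage, mature oligodendrocyte or endothelial score as a covariate and without the 3 libraries of both Xist and Y-linked reads. It ran from 0 to 7 when 1 library was left out. The count of 8 in Notch1-/-Notch2-/- was 3 (2 of the 8, and Nkx2-2), 0 and 2 with these 3 scores and 8 to 12 without single libraries. The 5 in Notch1-/- became 9 with voom, 0 with each score and 3 to 9 without single libraries. The 0 in Notch2-/- became 4 with voom. The 1 call in Rbpj-/- against Notch1-/-Notch2-/- became 2 with the Wald test and with voom, 0 with only the compared libraries and 0 to 1 without single libraries. The 0 in Notch1-/- against Notch2-/- became 1 with voom, 1 with only the compared libraries, and 3 and 1 with the microglia and macrophage and the mature oligodendrocyte score. Genes held went from 15 to 9 in Rbpj-/-, from 16 to 4 in Notch1-/-Notch2-/- and from 21 to 6 in Notch1-/- with the microglia and macrophage score, and to 4 and 5 in the last 2 with the endothelial score. The cause was not tested. The endothelial score was chosen after seeing the data.

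Values that changed sign were Olig1 in Rbpj-/- (0.17 with the mature oligodendrocyte score, -0.21 to 0.067 without single libraries) and in Notch2-/- (0.027, and -0.16 to 0.018), Sox10 in Notch2-/- (0.021 with the microglia and macrophage score, 0.062 with the mature oligodendrocyte score, -0.19 to 0.015 without single libraries), in Notch1-/-Notch2-/- (-0.29 with the endothelial score) and in Notch1-/- (-0.21), Olig2 in Notch1-/- (-0.081 with the endothelial score) and Susd5 in Notch1-/- (0.39 with the mature oligodendrocyte score). Of these only Susd5 had been called.

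Same-numbered replicates were not alike throughout: correlations of their deviations were -0.34 to 0.63 over 29 pairs, and no comparison had all above 0.1. Only equal replicate numbers were compared, so pairs or batches under other numbers were not tested. With the replicate block the calls were 2 in Rbpj-/-, 9 in Notch1-/-Notch2-/-, 4 in Notch1-/-, 0 in Notch2-/-, 0 in Rbpj-/- against Notch1-/-Notch2-/- and 0 in Notch1-/- against Notch2-/-.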
